A study of Mus musculus with 28 samples.

Results

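The regions described here are binding sites of the glucocorticoid receptor (GR) that lay inside genes and in active chromatin of mouse macrophages. A peak is a stretch of genome with more chromatin immunoprecipitation reads than its surroundings, as called by the authors. A GR peak was taken as a member where it overlapped a peak of histone H3 acetylated on lysine 27 (H3K27ac), which marks enhancers and promoters in use, by at least 1 bp. It also had to lie inside the span of an mm10 RefSeq protein-coding gene and more than 1 kb from both ends of every such gene. By this rule 2108 of 8394 GR peaks were members (25.1%), spread over 1473 genes. The choice used no comparison of groups. The peaks were called on reads of these libraries, however, so membership is not independent of the GR and H3K27ac levels. A site can have become a member through a group in which it was high. The cells were primary bone marrow-derived macrophages from male C57BL/6 mice of 8 to 10 weeks, differentiated for 5 days in medium with L-cell conditioned medium. They received 500 nM corticosterone (Cort), the main glucocorticoid that mice make, 100 nM of the synthetic glucocorticoid dexamethasone (Dex), 10 ng/ml interleukin 4 (IL4), which drives alternative macrophage activation, or vehicle, for 24 h. No time is given for the vehicle libraries of H3K27ac. GR was measured in 4 Cort, 4 Dex, 3 IL4 and 4 vehicle libraries and H3K27ac in 3 libraries of each group. Formaldehyde was the crosslinker for H3K27ac, and for GR disuccinimidyl glutarate was used in addition. The labels do not say whether the libraries of a group came from separate animals, so p-values measure the spread between libraries, which may be technical. A sample of many cells cannot tell fewer bound cells from less binding per cell.

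GR is a nuclear receptor that sits in the cytoplasm with chaperones until a steroid binds it. It then enters the nucleus and binds DNA at glucocorticoid response elements, or is held at other factors, mostly at sites that are already open in the cell type. Many of these sites lie in introns far from promoters, where binding can raise or lower the activity of the host gene or of a neighbour. In macrophages GR is known for damping inflammatory genes and for promoting the uptake of dead cells, and IL4 acts through another pathway, the transcription factor STAT6.

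The members had a median length of 135 bp (76 to 887 bp), against 110 bp for the other GR peaks. They sat a median of 15.7 kb from the nearest end of a protein-coding gene, in host genes with a median span of 68.6 kb. At the edge of the rule, 21 members lay between 1 and 1.1 kb from a gene end, and 16 peaks between 0.9 and 1 kb fell just outside it. A single member was found in 1063 genes, and 410 genes held at least 2. The genes with the most members were Psap with 9, Ctsb and Gpnmb with 8 each, and Ctsl and Ninj2 with 7 each. The members lay in 1886 of the 63313 H3K27ac peaks, of which 1709 held 1 member and 177 held more, up to 8. In all, 2048 members lay wholly within an H3K27ac peak. The H3K27ac peaks that held members had a median length of 3142 bp, against 1013 bp for all H3K27ac peaks, so H3K27ac was measured over a wider stretch than GR. Members that share an H3K27ac peak share its value and were counted once there.

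The sequence of a member can be shown where a RefSeq start of a gene or noncoding RNA lies next to it. The RefSeq windows (250 bases before to 50 after each start, build GRCm38.p6, which is mm10) overlapped 36 members, and 6 of these rose in GR with Dex. The 4 printed here are those of the 6 that held one of the patterns below. They are examples, picked for holding a pattern, and do not stand for the other members. Their genes fell outside the rule for named genes and were chosen after their values were seen. The patterns were searched on both strands. The strict pattern GNACANNNTGTNC, a form of the glucocorticoid response element, is in 0.475% of all 32851 windows, and the core ACANNNTGT, which it contains, is in 6.85%. The 6-base pattern TGTTCT, 1 arm of the element, read as AGAACA on the other strand, is in 19.0%. Capitals mark the matches. Map3k6 encodes a stress-activated kinase, and its stretch is chr4:133240568-133240813 on the plus strand. Sult1a1 encodes a sulfotransferase, and its stretch is chr7:126676369-126676577 on the minus strand. Cd300lf encodes an inhibitory receptor of myeloid cells, and its stretch is chr11:115133943-115134242 on the minus strand. The last lies inside Tenm4, a teneurin gene, at the start of the noncoding RNA Gm15413, at chr7:96801618-96801714 on the minus strand.
Map3k6: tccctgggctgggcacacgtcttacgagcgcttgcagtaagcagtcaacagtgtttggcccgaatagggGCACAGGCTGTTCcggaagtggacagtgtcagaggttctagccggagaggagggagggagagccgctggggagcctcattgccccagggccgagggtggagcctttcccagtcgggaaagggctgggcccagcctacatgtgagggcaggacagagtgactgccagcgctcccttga
Sult1a1: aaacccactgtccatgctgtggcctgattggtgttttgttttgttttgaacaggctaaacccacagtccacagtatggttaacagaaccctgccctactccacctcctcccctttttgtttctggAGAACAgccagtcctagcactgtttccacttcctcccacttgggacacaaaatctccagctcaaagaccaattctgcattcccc
Cd300lf: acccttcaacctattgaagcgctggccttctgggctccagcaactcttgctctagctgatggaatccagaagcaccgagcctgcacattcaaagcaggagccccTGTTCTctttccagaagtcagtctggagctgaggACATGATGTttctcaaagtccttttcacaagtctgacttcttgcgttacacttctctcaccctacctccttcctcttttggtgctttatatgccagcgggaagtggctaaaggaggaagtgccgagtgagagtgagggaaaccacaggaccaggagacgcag
Tenm4: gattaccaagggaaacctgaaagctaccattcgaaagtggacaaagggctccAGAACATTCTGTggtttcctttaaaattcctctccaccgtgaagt
The Map3k6 stretch held the strict pattern from base 70, and in the Tenm4 stretch the 6-base pattern from base 53 overlaps the core from base 56. The core was in 3 of the 6 windows of members that rose with Dex and in 5 of the 33 windows of the other members. The strict pattern was in 1 of 6 and 0 of 33, and the full palindrome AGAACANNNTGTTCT, which 0.00913% of all windows hold, was in none of either. The pattern TGANTCA, bound by AP-1 factors and present in 7.81% of all windows, was in 0 of 6 and 6 of 33. These matches describe letters and show no binding.

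Levels are given in CPM, reads in the region per 1000000 counted reads of the library after TMM normalisation, a scaling for composition. In Map3k6 (member chr4:133240470-133240813), GR had 34.7, 30.0, 23.7 and 36 CPM in Cort, 55.5, 36.4, 40.5 and 39.0 in Dex, 10.3, 10.7 and 12.8 in IL4, and 8.49, 10.0, 5.72 and 10.3 in vehicle libraries. All Cort and Dex libraries lay above all vehicle libraries. The log2 fold change was 1.86 ± 0.29 (SE) with Cort (adjusted p = 0.000694) and 2.32 ± 0.29 with Dex (adjusted p = 0.000125, edgeR's quasi-likelihood test over all tested peaks). At the shorter Sult1a1 site GR had 7.41, 9.35, 6.78 and 14.1 CPM in Cort, 11.6, 9.69, 11.9 and 17.2 in Dex, 3.42, 3.34 and 3.76 in IL4, and 2.83, 3.34, 2.54 and 3.88 in vehicle libraries. Steroid libraries lay above IL4 and vehicle libraries there too, and the log2 change was 1.60 ± 0.34 with Cort and 2.02 ± 0.33 with Dex. At Cd300lf the change passed with Dex (1.11 ± 0.35, adjusted p = 0.0251) and not with Cort (0.78 ± 0.35, adjusted p = 0.113). At Tenm4 it was 1.81 ± 0.45 with Dex (adjusted p = 0.00733) and 1.31 ± 0.47 with Cort (adjusted p = 0.0517). All 4 sites lay in H3K27ac peaks that rose with Dex, by log2 1.03 ± 0.12 at Map3k6, 1.48 ± 0.25 at Sult1a1, 0.95 ± 0.12 at Cd300lf and 1.78 ± 0.30 at Tenm4.

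The GR libraries held 900063 to 1981582 reads in peaks, of which 17350 to 53236 fell in members, with the exception of Cort replicate 4, which had 161487. Members took 8.71% of the reads of that library and 1.03% to 4.41% of the others. At 225 members it lay over 4-fold above the mean of the other Cort libraries (after adding 2 CPM). A single region outside the members, chr2:98666249-98667322, held 45.4% to 59.2% of the GR reads. The titles place replicates 1 and 2 of Cort, Dex and vehicle in batch 1, and the other GR libraries, with all of IL4, in batch 2. The H3K27ac libraries held 6829787 to 15695771 reads, with 12.8% to 15.2% in peaks that held members. Macrophage markers all had an H3K27ac peak (9 of 9 genes), summing to 2936 to 3831 CPM in Cort, 2876 to 3813 in Dex, 2458 to 2904 in IL4 and 2658 to 3204 in vehicle libraries. None of the 4 fibroblast and 3 mast cell or basophil markers had one. Among the other lists 1 of 3 T cell, 2 of 4 B cell, 2 of 4 neutrophil, 3 of 3 dendritic and 1 of 3 erythroid markers had one. The B cell markers summed to 107 to 142 CPM in Cort, 97.1 to 122 in Dex, 93.5 to 131 in IL4 and 140 to 190 in vehicle libraries, and the dendritic markers to 219 to 350, 217 to 362, 162 to 232 and 242 to 367 CPM in the same order. The part of these in the results was not tested.

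Both steroids raised GR at many of the members, and among the largest rises were sites in Sh3kbp1, Zbtb16, Klf13, Hif3a, Tlr7 and Fkbp5. Of the 2108 members 1726 had enough reads to be tested. GR rose at 311 of them with Cort (18%), against 12.8% of all 5183 tested GR peaks, and at 350 with Dex (20.3%), against 14.7% of all tested. It fell at 42 with Cort (2.43%) and 36 with Dex (2.09%), against 14.8% and 15.6% of all tested peaks. The median log2 change over the tested members was 0.49 with Cort and 0.36 with Dex, and over all tested peaks 0.17 and -0.12. In batch 1 alone GR rose at 303 members and fell at 100 with Cort, and rose at 309 and fell at 70 with Dex. In batch 2 alone no member passed edgeR's test (333 with Cort and 292 with Dex had an unadjusted p under 0.05). Without Cort replicate 4, an alternative chosen after seeing the data, GR rose at 25 with Cort and 192 with Dex in that batch.

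The site in Zbtb16, which encodes a zinc finger repressor, lies at chr9:48723543-48724003. It had 108, 118, 81.4 and 85.5 CPM in Cort, 141, 138, 91.7 and 118 in Dex, 4.78, 13.4 and 10.5 in IL4, and 8.49, 8.92, 6.35 and 14.2 in vehicle libraries. Every steroid library was above 80 CPM and every other library under 15, a log2 change of 3.35 ± 0.35 with Cort (adjusted p = 4.69e-05) and 3.67 ± 0.35 with Dex (adjusted p = 2.28e-05, edgeR's quasi-likelihood test). Fkbp5 encodes a co-chaperone that holds GR in its inactive complex, and is itself a known glucocorticoid target. Its stronger member, chr17:28420136-28420595, had 110, 123, 83.0 and 110 CPM in Cort, 164, 122, 114 and 129 in Dex, 4.78, 15.4 and 13.5 in IL4, and 11.3, 13.4, 12.7 and 18.1 in vehicle libraries. The steroid libraries stood clear of all others (2.93 ± 0.34 with Cort and 3.24 ± 0.34 with Dex). A second Fkbp5 member at chr17:28407931-28408285 rose by 1.94 ± 0.48 with Cort and 2.14 ± 0.48 with Dex.

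Klf13, a Krüppel-like transcription factor gene, held a member at chr7:63896854-63897283. GR there had 186, 164, 118 and 194 CPM in Cort, 204, 179, 158 and 195 in Dex, 13, 36.1 and 25.6 in IL4, and 11.3, 15.6, 15.2 and 23.3 in vehicle libraries. IL4 and vehicle libraries overlapped, while the steroid libraries lay above both (3.34 ± 0.34 with Cort and 3.49 ± 0.34 with Dex). Hif3a encodes a hypoxia-inducible factor subunit, and its member chr7:17058151-17058601 had 96.8, 83.2, 92.1 and 96.2 CPM in Cort, 167, 124, 130 and 133 in Dex, 5.47, 9.36 and 11.3 in IL4, and 18.4, 8.92, 12.1 and 12.9 in vehicle libraries. All 4 Dex libraries lay above all 4 Cort libraries at Hif3a, but at different doses, and the direct comparison is given further on. The log2 change was 2.82 ± 0.29 with Cort and 3.41 ± 0.30 with Dex (adjusted p = 1.47e-05). The site in Tlr7, the gene of an endosomal receptor for single-stranded RNA, lies at chrX:167318771-167319224 and had 52.3, 54.6, 28.8 and 36 CPM in Cort, 42.1, 43.6, 30.4 and 42.8 in Dex, 4.10, 2.01 and 10.5 in IL4, and 4.25, 3.34, 5.08 and 3.88 in vehicle libraries. Again no steroid library overlapped the others, and the change was 3.28 ± 0.43 with Cort and 3.19 ± 0.43 with Dex.

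Several further named members rose with both steroids. Sh3kbp1, which encodes an adaptor in receptor uptake, rose by 3.53 ± 0.55 with Cort and 3.74 ± 0.54 with Dex, and 1 of its vehicle libraries had no read. Man2a1, a Golgi mannosidase gene, rose by 2.69 ± 0.35 and 2.78 ± 0.35, and Ccnd3, which encodes cyclin D3, by 2.71 ± 0.24 and 2.63 ± 0.24, with Cort and Dex in that order. Jaml, an adhesion molecule gene, rose by 2.43 ± 0.37 with Cort and 2.51 ± 0.37 with Dex at its member chr9:45095564-45095828. Ezr, which encodes the membrane linker ezrin, rose by 2.12 ± 0.30 with Cort and 2.21 ± 0.30 with Dex. Of the named GR values called higher, 28 of 37 with Cort and 33 of 38 with Dex stayed called whichever library was left out, and of those called lower 9 of 21 with Cort and 9 of 19 with Dex did. One rise that did not was Il4ra, the gene of the IL4 receptor alpha chain, whose member at chr7:125561378-125561576 rose by 1.16 ± 0.38 with Cort. Its call was lost without Cort replicate 2 or 4 or vehicle replicate 2, 3 or 4 (adjusted p up to 0.113). With Dex Il4ra rose by 1.51 ± 0.38, and the call held without each library in turn.

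**Figure D1:**
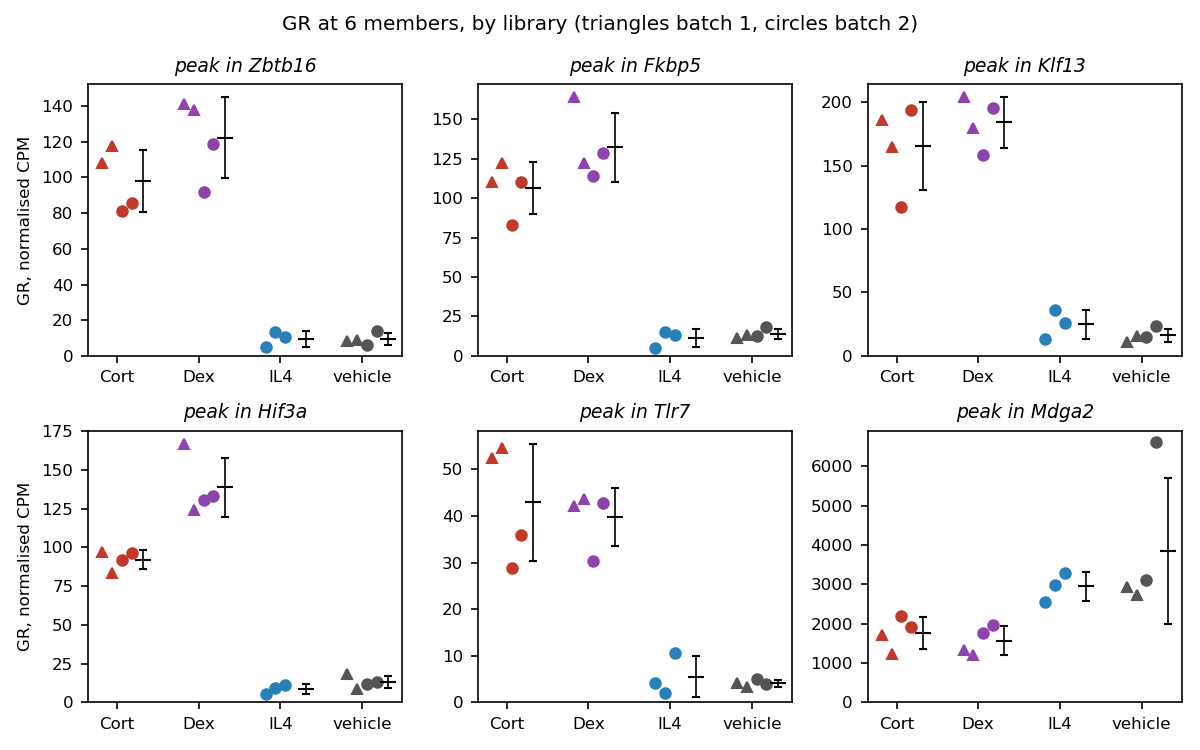
GR level in normalised CPM (linear axis from 0) at 6 members in every library, with Cort, Dex, IL4 and vehicle from left to right, triangles for batch 1, circles for batch 2 and a bar with whiskers for the mean and SD. In Zbtb16, Fkbp5, Klf13, Hif3a and Tlr7 the 8 steroid libraries lie above all IL4 and vehicle libraries, while in Mdga2 the steroid libraries (1213 to 2184 CPM) lie below them (2563 to 6626 CPM). Levels are shown after TMM scaling, on which the Mdga2 difference depends.

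Gene lists chosen with earlier results of these data known were read through the members of their genes. Over all tested members GR rose at 18% with Cort and 20.3% with Dex, and fell at 2.43% and 2.09%. Over all tested GR peaks it rose at 12.8% and 14.7% and fell at 14.8% and 15.6%. No list was tested against these shares. The list of glucocorticoid-induced genes had members in 14 of 49 genes, and of 23 tested members 14 rose in GR with Cort and 14 with Dex, and none fell. Their median log2 change was 1.60 with Cort and 2.14 with Dex. These calls lay in the same 9 genes with either steroid, namely Fkbp5, Foxo3, Hif3a, Map3k6, Mertk, Per1, Per2, Tns1 and Zbtb16. In Mertk, which encodes a receptor for dead cells, 2 of 3 members rose, and the one at chr2:128746531-128746839 had 58.4, 47.3, 38.4 and 47.3 CPM in Cort, 67.1, 53.3, 40.5 and 50.2 in Dex, 5.47, 8.69 and 9.78 in IL4, and 7.08, 10.0, 5.08 and 9.05 in vehicle libraries. Steroid libraries of Mertk lay above all others (2.62 ± 0.30 with Cort and 2.75 ± 0.30 with Dex). Its neighbour at chr2:128745919-128745998, in the same H3K27ac peak, did not pass (0.04 ± 0.35 with Cort and 0.35 ± 0.34 with Dex).

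The circadian list had members in 3 of 21 genes, and 3 of 4 tested members rose with each steroid. They lay in Per1 and Per2, repressors of the clock. Per2 had 12.5, 14.3, 16.9 and 11.3 CPM in Cort, 23.8, 15.5, 14.9 and 23.2 in Dex, 4.78, 5.35 and 6.02 in IL4, and 2.83, 2.23, 4.45 and 3.88 in vehicle libraries, with no overlap of steroid and other libraries (1.98 ± 0.32 with Cort and 2.48 ± 0.32 with Dex). Of the GR cofactors and chaperones, 5 of 9 tested members rose with each steroid, in Fkbp5 and in the histone deacetylase genes Hdac4 and Hdac9, and none fell. The list of transcription factors of macrophage enhancers had 21 tested members in 12 genes, of which 4 rose with each steroid, in Klf13, Irf2 and Bach2, and none fell. The share that rose was near that of all tested members. In Irf2, an interferon regulatory factor gene, the called member rose by 2.04 ± 0.28 with Cort and 2.07 ± 0.28 with Dex, and in Bach2, a repressor gene, by 1.86 ± 0.34 and 2.09 ± 0.34 in that order.

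The cytoskeleton and adhesion list had 46 tested members in 26 genes, and 10 rose and 2 fell with each steroid. The share that rose was near that of all tested members (18% with Cort and 20.3% with Dex). Tns1, which encodes a link between integrins and actin, was among the risen ones, with 2.30 ± 0.51 with Cort and 2.84 ± 0.51 with Dex. Of 30 tested members of phagocytosis and scavenger receptor genes 6 rose with each steroid, in Mertk, Dock10, Lrp1 and Cd36, and 1 fell with Cort and 2 with Dex. That share of rises, too, was near the share over all tested members. The Dock10 member at chr1:80603116-80603449 rose by 1.96 ± 0.30 with Cort and 2.01 ± 0.30 with Dex. Of 19 tested members of lipid metabolism genes 2 rose and 3 fell with Cort, and 2 rose and 4 fell with Dex. The fallen ones lay in Lpl with Cort and Dex, in Lipa with Cort and in Plin2 with Dex, and the list's median was -0.97 with Cort and -0.79 with Dex. All members of Lpl, Lipa and Plin2 were among those high in batch 1, described further on. The named Lpl fall with Cort was lost on leaving out 1 of Cort replicates 1 and 2, IL4 replicates 1, 2 and 3 or vehicle replicates 2 and 4 (adjusted p up to 0.0746). With Dex it was lost on leaving out 1 of Dex replicates 2 and 4, IL4 replicates 2 and 3 or vehicle replicates 2 and 4 (adjusted p up to 0.0753). The named Plin2 fall with Dex was lost on leaving out 1 of Cort replicate 3, Dex replicates 1, 2, 3 and 4, IL4 replicates 1, 2 and 3, vehicle replicates 2 and 4 (adjusted p up to 0.263). The inflammatory list met the members in only 2 of 31 genes, and neither member passed. Of 10 tested members of IL4-induced genes 2 rose with Cort and 1 with Dex. A marker of another cell type was met once, in Flt3, and its GR did not pass (0.10 with Cort and -0.37 with Dex).

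The members that fell with steroids included several of the sites with the highest GR level in vehicle cells. At Mdga2, an adhesion gene of neurons, the member chr12:67059146-67059958 had 1723, 1231, 2184 and 1923 CPM in Cort, 1330, 1213, 1767 and 1976 in Dex, 2563, 2984 and 3298 in IL4, and 2922, 2737, 3107 and 6626 in vehicle libraries. In these scaled levels steroid libraries lay below all others (-1.09 ± 0.21 with Cort and -1.27 ± 0.21 with Dex, adjusted p = 0.000753, edgeR's quasi-likelihood test). Levels are divided by the TMM factor of the library. It was 0.392 to 0.841 in vehicle, 0.723 to 0.934 in IL4 and 1.02 to 1.72 in Cort and Dex libraries, so the fall at Mdga2 depends on the scaling. The H3K27ac peak around it had 36.2 to 102 CPM over all libraries and did not pass in any comparison. Jarid2, which encodes a component of Polycomb repressive complex 2, had 64.9, 60.1, 68.9 and 77.1 CPM in Cort, 56.6, 59.6, 72.6 and 30.7 in Dex, 211, 253 and 269 in IL4, and 110, 115, 177 and 143 in vehicle libraries. Steroid libraries of Jarid2 lay below all vehicle libraries (-1.29 ± 0.27 with Dex and a smaller fall with Cort), and IL4 did not pass (0.76 ± 0.29, adjusted p = 0.41). The call at Jarid2 with Cort (adjusted p = 0.0126) was lost without Cort replicate 3, IL4 replicate 2 or vehicle replicate 3 (adjusted p up to 0.0631).

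These falls depend on the scaling and on other choices. Changes are relative to the other peaks, since TMM factors come from counts in peaks. When libraries were scaled by their total count, the median of all tested peaks moved to 0.96 with Cort and 0.86 with Dex. GR then rose at 737 and fell at 2 members with Cort, and rose at 909 and fell at 1 with Dex. Of the named falls, 19 of 21 with Cort and 16 of 19 with Dex lost their call under it, and 2 with Dex reversed. By DESeq2 263 rose and 92 fell with Cort. With no low-count filter 5 fell with Cort and 12 with Dex, with no batch term 14 and 15, and without the 1% of peaks with most reads 18 and 14, in the same order. Without Cort replicate 4 the falls numbered 142 with Cort and 125 with Dex, and the rises 303 and 371.

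The same GR fit can be read by place. With Dex GR rose at 20.3% and fell at 2.09% of the tested members, while among tested GR peaks in active chromatin between genes it rose at 23.4% and fell at 4.04% of 1486. Near gene ends it rose at 46 and fell at 21 of 405. Outside H3K27ac peaks it rose at 1.21% and fell at 44.2% of 1566, but only 39.6% of those peaks had enough reads. The medians were 0.36 for members, 0.44 between genes, -0.37 near gene ends and -1.16 outside H3K27ac peaks. No test of these differences between classes was made. By length the share of members that rose with Dex was 4.28%, 1.88%, 20.0% and 55.2% from the shortest to the longest of 4 groups of like size, so it was low in the 2 shorter groups and higher in the 2 longer ones. Peaks were called on these libraries, so length is not independent of the GR level. By distance to a gene end the share was 13.9%, 20.4%, 23.2% and 23.6% from the nearest to the farthest of 4 such groups. The authors' GR table marks peaks TRUE or FALSE under the heading filtered without a stated criterion, and 40.9% of the 750 tested members marked TRUE rose with Dex, against 4.41% of the 976 marked FALSE.

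**Figure D2:**
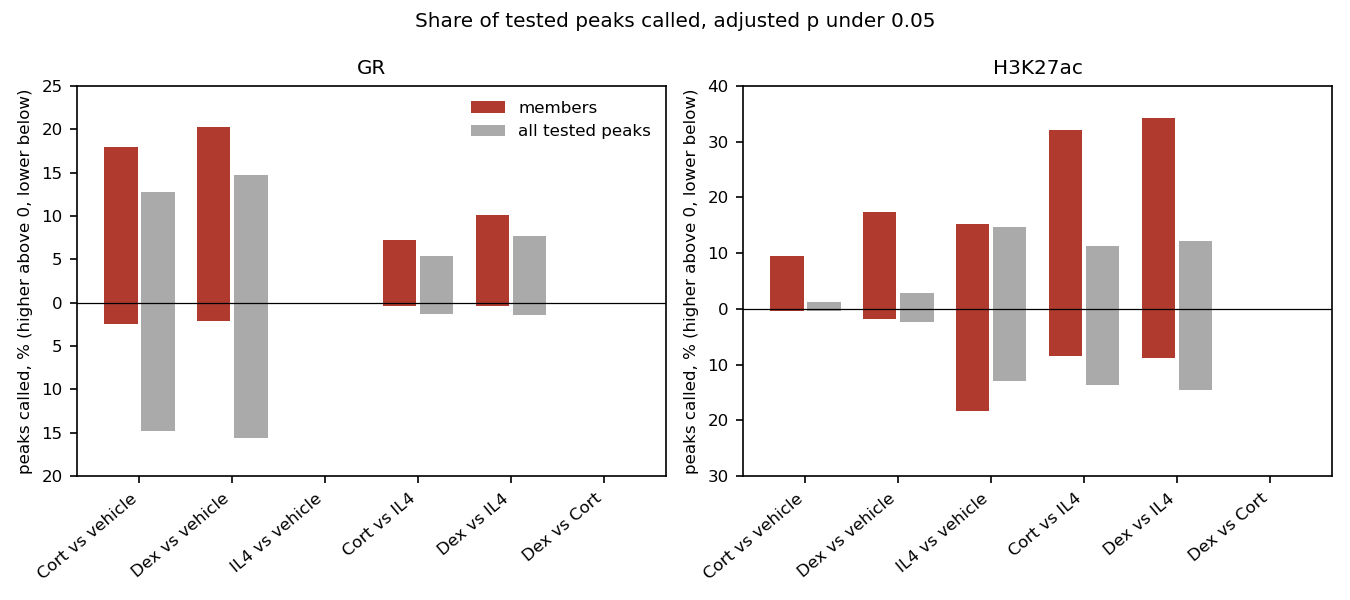
Share of tested peaks called at an adjusted p under 0.05, in percent, for members (red) and all tested peaks (grey) of GR (left) and H3K27ac (right) in 6 comparisons, with calls higher above the zero line and lower below it. With Dex against vehicle GR rose at 20.3% of members against 14.7% of all tested peaks and fell at 2.09% against 15.6%.

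H3K27ac at the members' peaks moved mostly upward with both steroids. Of 1881 tested H3K27ac peaks that held members, 177 rose and 6 fell with Cort (9.41% and 0.319%), against 1.18% and 0.376% of all 59881 tested H3K27ac peaks. With Dex 327 rose and 33 fell (17.4% and 1.75%), against 2.9% and 2.34% of all tested. The peaks with members were longer (median 3142 against 1013 bp). Their 95% intervals for Dex against Cort were narrower, with a median reach of 0.43 against 0.67 on the log2 scale. A change of a given size could thus pass more readily in them, and the shares were not matched for this. The median log2 change was 0.19 with Cort and 0.20 with Dex, and 0.00 and 0.01 over all tested peaks. Replicates with the same number varied together, and with the replicate number as a block 600 rose and 74 fell with Cort, and 699 rose and 126 fell with Dex. The shares of all tested peaks given above are from the fit without the block. None was computed with it, so the blocked counts cannot be set against those shares. Leaving out 1 library was done only in the fit without the block. There it changed the count with Cort from 183 in all to 92 without vehicle replicate 2, 98 without vehicle replicate 3 and 115 without Cort replicate 1. With Dex the count of 360 was 225 without Dex replicate 1, 223 without Dex replicate 3 or vehicle replicate 2, and 203 without vehicle replicate 3.

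Among the largest rises was that in Ppp1r21, which encodes a regulatory subunit of protein phosphatase 1. The H3K27ac peak around its member chr17:88581533-88581953 had 55.1, 72.6 and 55.7 CPM in Cort, 72.1, 95.7 and 79.9 in Dex, 5.55, 3.73 and 3.11 in IL4, and 7.31, 4.34 and 3.91 in vehicle libraries. Steroid libraries did not overlap the others, and the log2 change was 3.59 ± 0.26 with Cort (adjusted p = 1.93e-05) and 4.03 ± 0.26 with Dex (adjusted p = 5.06e-06, edgeR's quasi-likelihood test). GR at the same member rose by 1.99 ± 0.36 with Cort and 2.26 ± 0.36 with Dex. Another Ppp1r21 member, chr17:88551533-88551939, passed for neither GR (0.46 ± 0.29 with Dex) nor H3K27ac (0.11 ± 0.11). At Man2a1 H3K27ac had 167, 172 and 138 CPM in Cort, 170, 210 and 164 in Dex, 16.9, 16.2 and 12.1 in IL4, and 34.9, 29.6 and 32.4 in vehicle libraries. At Man2a1 the groups formed separate levels, with steroids above vehicle (2.30 ± 0.16 with Cort and 2.49 ± 0.16 with Dex) and IL4 below it (-1.1 ± 0.16).

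H3K27ac also rose around the GR sites named first. It rose by 4.01 ± 0.53 with Cort and 4.28 ± 0.53 with Dex at Zbtb16, where vehicle libraries had 0.62 to 4.21 CPM. At Klf13 it rose by 2.74 ± 0.19 and 2.90 ± 0.19, and at Fkbp5 by 2.33 ± 0.21 and 2.49 ± 0.21, with Cort and Dex in that order. Jaml rose by 2.57 ± 0.20 with Cort and 2.95 ± 0.20 with Dex, and Rptor, which encodes the Raptor subunit of mTORC1, by 2.04 ± 0.32 and 2.31 ± 0.33. Rptor held 6 members over 119709331 to 119875944 on chromosome 11, and the one with the largest GR change (2.44 ± 0.36 with Dex) lay in that H3K27ac peak. At Tlr7 H3K27ac passed with Dex and not with Cort (0.73 ± 0.17, adjusted p = 0.026 with Dex, and 0.58 ± 0.17, adjusted p = 0.117 with Cort), and its call was lost without Dex replicate 1 or 3 or vehicle replicate 1 or 3 (adjusted p up to 0.0948). With the replicate block the Tlr7 peak passed with Cort as well (adjusted p = 0.000285).

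Falls of H3K27ac with Dex were fewer and included Lpl, which encodes lipoprotein lipase. The H3K27ac peak around its member chr8:68905730-68905903 had 57.0, 60.7 and 64.9 CPM in Cort, 49.9, 47.6 and 50.3 in Dex, 251, 240 and 253 in IL4, and 114, 86.1 and 148 in vehicle libraries. At Lpl each group stood apart from vehicle, with -0.93 ± 0.16 with Cort (adjusted p = 0.0102), -1.24 ± 0.16 with Dex (adjusted p = 0.000794) and 1.1 ± 0.16 with IL4 (adjusted p = 0.000293). The call with Cort was lost without Cort replicate 1 (adjusted p = 0.0645) or vehicle replicate 3 (0.053). With the replicate block and all libraries Lpl passed with Cort (adjusted p = 6.63e-06, edgeR's quasi-likelihood test). Nav2, a neuron navigator gene, fell by 0.99 on the log2 scale with Dex, and Tpcn2, an endolysosomal channel gene, by 0.93. Lpl, Nav2 and Tpcn2 were the 3 of 11 named H3K27ac falls with Dex that stayed called whichever library was left out, and the other 8 were lost in at least 1 case. With the replicate block and all libraries, all 11 stayed called. GR did not pass at these Lpl and Nav2 members, and had too few reads to be tested in Tpcn2.

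By list, 13 of 22 tested H3K27ac peaks of the glucocorticoid-induced genes rose and 1 fell with Cort, and 15 rose and 2 fell with Dex. The fall with both was at Anxa1, a glucocorticoid-regulated gene of inflammation resolution, which had 15.4, 20.2 and 9.76 CPM in Cort, 12.8, 19.8 and 14.8 in Dex, 32, 39.3 and 28.2 in IL4, and 32.9, 35.1 and 39.7 in vehicle libraries. Steroid libraries lay below all others there (-1.24 ± 0.24 with Cort and -1.18 ± 0.24 with Dex). Of 29 tested peaks of phagocytosis and scavenger receptor genes 3 rose with Cort, and 4 rose and 1 fell with Dex. Among them Mertk had 195, 209 and 223 CPM in Cort, 192, 206 and 223 in Dex, 73.1, 64.2 and 72.7 in IL4, and 74.5, 89.0 and 89.9 in vehicle libraries. The Mertk peak thus separated steroids from both other groups (1.30 ± 0.12 with Cort and 1.29 ± 0.12 with Dex). Of 19 peaks of lipid genes 1 rose with each steroid, in Apoe, and 3 fell with Cort and 5 with Dex, all in Lpl. Of 41 peaks of cytoskeleton genes 4 rose with Cort and 5 with Dex, of 21 peaks of transcription factor genes 5 rose with each, and none of these fell. None of the 2 peaks of inflammatory genes passed. Over all tested peaks with members 9.41% rose with Cort and 17.4% with Dex, and over all tested H3K27ac peaks 1.18% and 2.9%. No list was tested against these shares. Flt3, a dendritic marker, rose with Dex (1.68 ± 0.33, adjusted p = 0.0106), and the call was lost without Dex replicate 3 or vehicle replicate 2 or 3 (adjusted p up to 0.0611). With the replicate block and all libraries Flt3 passed with Dex (adjusted p = 1.87e-06, edgeR's quasi-likelihood test).

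GR and H3K27ac could be set against each other at the same members. The 350 members where GR rose with Dex lay in 338 tested H3K27ac peaks, and 188 of these rose in H3K27ac with Dex (55.6%) and none fell. Where the GR change did not pass, 135 of 1229 H3K27ac peaks rose (11.0%) and 21 fell. With Cort the counts were 109 of 299 (36.5%) with none fallen, against 73 of 1263 (5.78%) where GR did not pass. These H3K27ac calls come from the fit without the replicate block. More peaks passed with the block, as given above, and this split was not repeated with it. Peaks counted here as not passing may therefore pass with the block. Membership needs a GR and an H3K27ac peak called on these same libraries. A GR-raised site with no H3K27ac peak is left out by the rule, and a site low in vehicle can be a member through a treated group. The split above and the levels and coefficients below are thus not independent of the rule. The vehicle level also enters the H3K27ac change, so the levels that follow are a description. With Dex, the median vehicle level was 20.1 CPM at the 196 GR-raised members whose H3K27ac rose and 78.8 CPM at the 153 whose H3K27ac did not pass. The median GR change was 1.81 for the first and 1.39 for the second. With Cort the vehicle levels were 17.8 and 60.2 CPM. Across 1723 members Spearman's coefficient between the GR and the H3K27ac change was 0.31 with Cort, 0.52 with Dex and 0.22 with IL4, given as a description, since members share libraries and some share an H3K27ac peak.

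**Figure D3:**
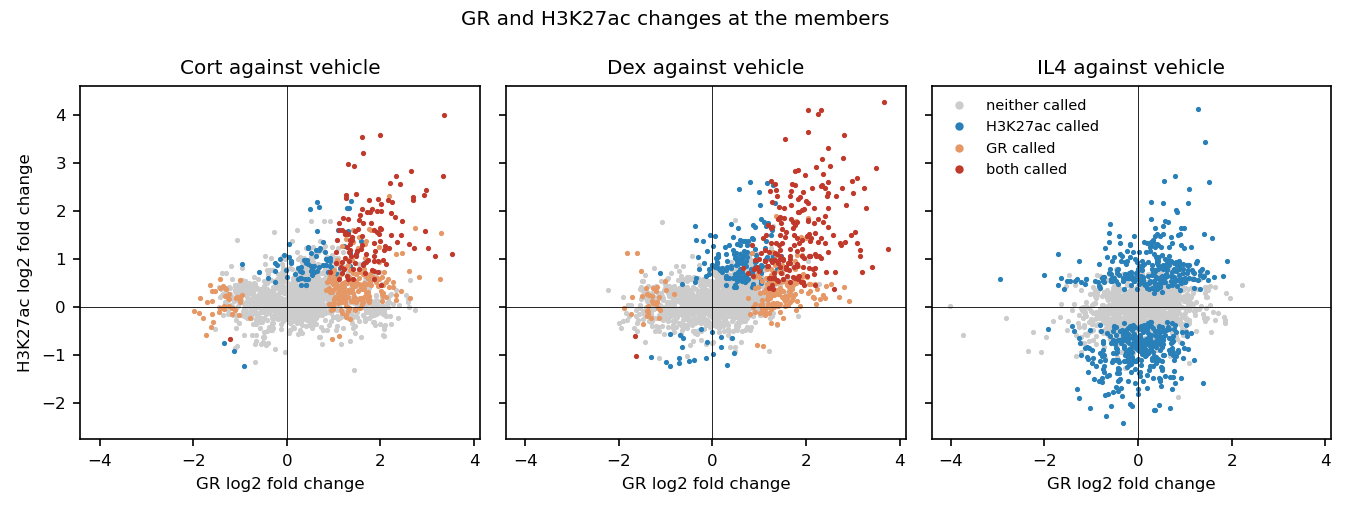
Log2 fold change of GR (horizontal) and of H3K27ac in the overlapping peak (vertical) at each member tested for both, for Cort, Dex and IL4 against vehicle, with colours for neither, 1 or both changes called at an adjusted p under 0.05. With Dex most members called for both lie at upper right, where 188 H3K27ac peaks rose with their GR site, and with IL4 no GR change was called.

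With IL4 no GR change passed the threshold at any member in edgeR's test, while H3K27ac changes passed in both directions. There 0 of 1726 members were called with IL4 (0.0% higher and 0.0% lower of all tested GR peaks). An unadjusted p under 0.05 was seen at 145 members and at 612 of all 5183 tested peaks, and DESeq2 called 2 members higher and 10 lower. IL4 libraries were in batch 2 alone, where no member passed edgeR's test with Cort or Dex against vehicle either. A p that misses the threshold does not show that IL4 left GR unchanged. The median GR change was 0.11 over the members and -0.10 over all tested peaks. In H3K27ac 287 peaks with members rose with IL4 and 344 fell (15.3% and 18.3%), against 14.7% and 12.9% of all tested H3K27ac peaks, and with the replicate block 468 rose and 571 fell. The shares of all tested peaks are from the fit without the block. Where GR had risen with Dex, 53 H3K27ac peaks rose (15.7%) and 72 fell with IL4 (21.3%), and where it had not passed, 15.0% rose and 18.8% fell. The IL4 and Dex comparisons share the vehicle libraries.

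Of the named members the highest rise with IL4 was around the member in Arhgap12. H3K27ac there had 17.2, 18.9 and 12.1 CPM in Cort, 18.1, 17.9 and 13.8 in Dex, 126, 110 and 101 in IL4, and 18.1, 10.6 and 15.5 in vehicle libraries. IL4 libraries stood above all others (2.94 ± 0.22, adjusted p = 2.47e-06, edgeR's quasi-likelihood test), and GR had too few reads to be tested. In Arhgap12 GR had 21.4 CPM in Cort replicate 4 and 0 to 7.80 CPM in all other libraries. F7 encodes coagulation factor VII, and H3K27ac at chr8:13028535-13028785 had 78.2, 72.5 and 97.7 CPM in Cort, 88.2, 84.7 and 109 in Dex, 226, 233 and 234 in IL4, and 35.9, 31.0 and 37.5 in vehicle libraries. The 3 treatments all exceeded vehicle at F7 (1.25 ± 0.14 with Cort, 1.43 ± 0.14 with Dex and 2.73 ± 0.15 with IL4), and GR at its member did not pass. Around the members chr4:19918968-19919051 and chr4:19919068-19919183 of Atp6v0d2, a proton pump subunit gene that IL4 is known to induce, H3K27ac rose by 2.84 ± 0.35. It fell by 0.47 around the other Atp6v0d2 member at chr4:19894695-19894910 (adjusted p = 0.0229). Mmp12, which encodes macrophage elastase, rose by 2.02 ± 0.28, Creb5, a bZIP factor gene, by 2.16 ± 0.19, and Fcgr2b, the gene of the inhibitory Fc receptor, by 2.27 ± 0.19.

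Falls with IL4 took in several sites where steroids raised GR. At Siglece, which encodes an inhibitory sialic acid receptor, H3K27ac around chr7:43664057-43664374 had 78.8, 152 and 85.5 CPM in Cort, 73.7, 146 and 83.4 in Dex, 23.8, 29.9 and 24.3 in IL4, and 93.0, 131 and 105 in vehicle libraries. Only the IL4 libraries stood apart (-2.08 ± 0.29), while GR at that member rose by 1.45 ± 0.41 with Cort and 1.21 ± 0.42 with Dex. Those GR calls were lost without vehicle replicate 2 with Cort (adjusted p = 0.053) and without Dex replicate 1, 2 or 4 or vehicle replicate 1, 2 or 3 with Dex (adjusted p up to 0.095). At Hif3a the H3K27ac peak had 107, 161 and 113 CPM in Cort, 133, 177 and 136 in Dex, 20.2, 31.0 and 21.2 in IL4, and 69.2, 109 and 71.4 in vehicle libraries. IL4 libraries lay below all others (-1.78 ± 0.23), Cort did not pass without the replicate block (0.61 ± 0.22, adjusted p = 0.223), and Dex passed (0.84 ± 0.22, adjusted p = 0.0456) but was lost without Cort replicate 3, Dex replicate 1, 2 or 3, IL4 replicate 3, or vehicle replicate 1 or 3 (adjusted p up to 0.158). Within each replicate number the Cort and Dex libraries of Hif3a lay above vehicle, and with the block Cort passed too (0.62 ± 0.08, adjusted p = 2.27e-05, edgeR's quasi-likelihood test). H3K27ac at the Tns1 member chr1:74007690-74008073 had 44.1, 62.1 and 50.7 CPM in Cort, 55.5, 68.7 and 63.3 in Dex, 5.79, 5.92 and 5.48 in IL4, and 13.7, 17.0 and 12.2 in vehicle libraries. It rose by 1.87 ± 0.17 with Cort and 2.13 ± 0.17 with Dex and fell by 1.32 with IL4. Around another Tns1 member, at chr1:74053310-74053452, H3K27ac rose with IL4 (1.04 ± 0.26, adjusted p = 0.00925). At the first site GR was also higher with both steroids. Fkbp5 fell by 0.93 with IL4 (adjusted p = 0.00477). Apoe, the gene of a lipid carrier, rose in H3K27ac with Dex (0.92 ± 0.17) and fell by 0.90 with IL4. Other falls with IL4 were at Alk, a receptor kinase gene (-2.43 ± 0.38), Hivep3, a zinc finger gene (-2.16 ± 0.18), and Sox5, a transcription factor gene (-2.02 ± 0.37).

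**Figure D4:**
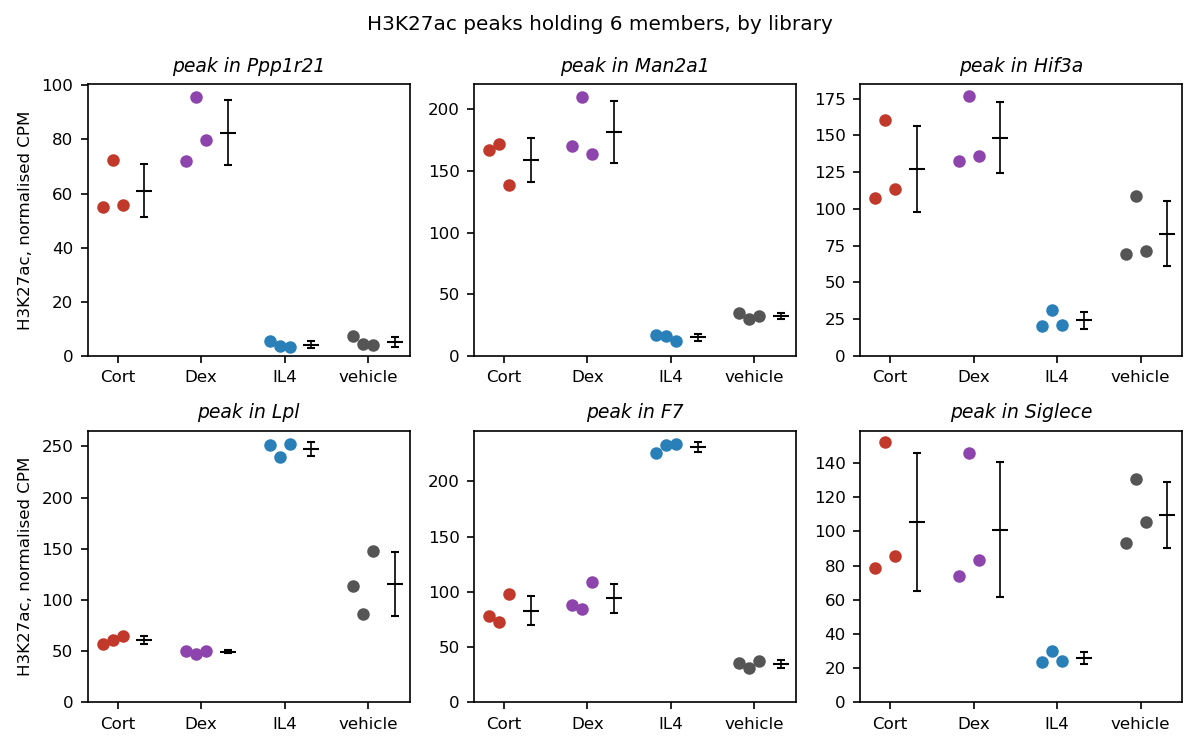
H3K27ac level in normalised CPM (linear axis from 0) of the peaks around 6 members in every library, with Cort, Dex, IL4 and vehicle from left to right and a bar with whiskers for the mean and SD. Steroid libraries are highest in Ppp1r21 (55.1 to 95.7 CPM) and Man2a1, Cort and vehicle libraries overlap in Hif3a though each Cort library lies above the vehicle library of its number, IL4 libraries are highest in Lpl (240 to 253 CPM) and F7 (226 to 234 CPM), and IL4 libraries are lowest in Siglece (23.8 to 29.9 CPM).

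By list, of 13 tested H3K27ac peaks of IL4-induced genes 3 rose and 3 fell with IL4. Il31ra, which encodes a cytokine receptor, rose by 1.74 ± 0.28 and Pdcd1lg2, the gene of the checkpoint ligand PD-L2, by 0.78 ± 0.16, as did 1 peak of Atp6v0d2. Peaks in Alox15, a lipoxygenase gene (-0.84 ± 0.16), in Il4ra and in Atp6v0d2 fell. Of 41 peaks of cytoskeleton genes 8 rose and 7 fell with IL4, of 29 of phagocytosis genes 2 rose and 4 fell, of 21 of transcription factor genes 8 rose and 1 fell, of 19 of lipid genes 5 rose and 2 fell, and of 22 of glucocorticoid-induced genes 3 rose and 5 fell. Over all tested H3K27ac peaks 14.7% rose and 12.9% fell with IL4, and no list was tested against these shares. Of the circadian genes Per2 rose, with 11.1, 8.30 and 12.2 CPM in Cort, 18, 14.3 and 19.9 in Dex, 11.2, 10.0 and 13.6 in IL4, and 5.70, 2.95 and 1.80 in vehicle libraries. All treated libraries lay above vehicle at Per2, by 1.65 ± 0.33 with Cort, 2.38 ± 0.33 with Dex and 1.80 ± 0.33 with IL4. The call with Cort was lost without Cort replicate 1 or 3 or vehicle replicate 2 or 3 (adjusted p up to 0.116). With the replicate block and all libraries Per2 passed with Cort (adjusted p = 6.35e-05, edgeR's quasi-likelihood test).

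Set directly against IL4, which leaves vehicle out of the contrast, steroids raised GR at 124 members with Cort and 174 with Dex, against 5.42% and 7.72% of all tested GR peaks. GR was lower with steroid than with IL4 at 6 members each, against 1.25% and 1.43% of all tested. In batch 2 alone, which holds all IL4 libraries, 63 members were higher and 4 lower with Dex, and none passed with Cort (370 at an unadjusted p under 0.05 in edgeR's test). Without Cort replicate 4 as well, the count in batch 2 was 42 higher and 1 lower with Cort, and 221 higher and 21 lower with Dex. Over all batches, the count of 130 with Cort was 84 without IL4 replicate 1, and that of 180 with Dex was 116 without Dex replicate 4. Without Cort replicate 4 the counts were 134 higher and 61 lower with Cort, and 236 higher and 75 lower with Dex. H3K27ac was higher with Cort than with IL4 at 604 peaks with members and lower at 158, against 11.3% and 13.7% of all tested H3K27ac peaks. Between Dex and IL4 it was higher at 646 and lower at 164, against 12.1% and 14.6%. With the replicate block 826 were higher and 306 lower for Cort, and 854 higher and 317 lower for Dex. The shares of all tested H3K27ac peaks are from the fit without the block. At Lpl the H3K27ac difference between Dex and IL4 was -2.33 on the log2 scale.

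Cort at 500 nM and Dex at 100 nM differed at no member past the threshold, for GR or for H3K27ac. In edgeR's test 0 of 1726 members were called for GR (0.0% higher and 0.0% lower of all tested GR peaks, 134 members at an unadjusted p under 0.05) and 0 of 1881 for H3K27ac (0.0% higher and 0.0% lower of all tested, 33 at an unadjusted p under 0.05), and DESeq2 called 0 for each kind of data. The lowest adjusted p was 0.522 for GR. For GR, 690 members (40.0%) had a 95% interval of the difference between -1 and 1 on the log2 scale, and the intervals reached a median of 0.82 to either side. For H3K27ac 1582 peaks (84.1%) had such an interval, with a median reach of 0.43. Over all tested peaks the shares were 37.8% for GR and 60.7% for H3K27ac. Of the 430 members called in GR with either steroid, 280 had such an interval (65.1%), and of all tested GR peaks so called 58.0% did. A p that misses the threshold does not show that the 2 steroids act alike, and their doses differed.

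A set of members was high in batch 1, in every group that batch held. This pattern and its genes were chosen after the data were seen. GR was higher in batch 1 at 200 members and lower at 35 (11.6% and 2.03% of those tested), against 17.5% and 9.22% of all tested GR peaks, with a median log2 difference of 3.18 over the 200. They lay in 125 genes, a median of 3.94 kb from a gene end, against 15.7 kb for all members. The set took in all 9 members of Psap, the gene of the lysosomal protein prosaposin, all 8 of Gpnmb, a gene of a lysosome-associated glycoprotein, 7 of 8 of the cathepsin gene Ctsb, 6 of 7 of Ctsl and all 6 of Ctsd and of Lpl. It was not limited to such genes, and took in all members of Ms4a6c (5), Ms4a7 (4), Eef1a1 and Rack1 (3 each), and Actb, Aldoa and H3f3b (2 each). Of the 200, 8 rose in GR with each steroid, while 23 fell with Cort and 19 with Dex, out of 42 and 36 falls over all members. Their median GR level in batch 1 was 19.1 CPM in vehicle, 11.6 in Cort and 13.2 in Dex. In batch 2 it was 2.73, 1.41 and 1.36 CPM in the same order.

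Summed over the 9 Psap members, GR had 202 and 316 CPM in batch 1 and 8.47 and 10.7 in batch 2 with Cort, 292 and 314 against 10.7 and 8.83 with Dex, and 401 and 661 against 10.8 and 32.3 with vehicle. The IL4 libraries of batch 2 had 14.4, 18 and 14.3 CPM. Every batch 1 library of Psap thus lay above every batch 2 library. Over the 8 Ctsb members the sums were 441 and 663 against 30.5 and 29.8 CPM with Cort, 633 and 682 against 36.9 and 31.6 with Dex, 33.5, 48.8 and 27.8 with IL4, and 755 and 1352 against 25.4 and 47.8 with vehicle. The exception in Ctsb was the member chr14:63129030-63129302, which had 24.1, 21.2, 18.6 and 14.1 CPM in Cort, 18.3, 23.8, 25.6 and 14.4 in Dex, 16.4, 20.1 and 7.52 in IL4, and 5.66, 5.57, 10.8 and 6.46 in vehicle libraries. There all steroid libraries lay above vehicle, and GR rose by 1.39 ± 0.37 with Cort (adjusted p = 0.014, and 0.0522 without vehicle replicate 2) and 1.46 ± 0.37 with Dex (adjusted p = 0.00792). At Apoe a single member had 136, 223, 0.565 and 1.13 CPM in Cort, 217, 196, 2.98 and 3.72 in Dex, 0.684, 4.01 and 3.76 in IL4, and 252, 371, 2.54 and 2.58 in vehicle libraries, in the order of replicates 1 to 4. The members of these genes in batch 1 carried GR reads with and without steroid, and which step of the work differed between the batches is not given in the sources used here. All 6 members of Lpl, all 4 of Plin2 and all 2 of Lipa were of this set, and the GR falls of lipid genes were counted in these genes.

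**Figure D5:**
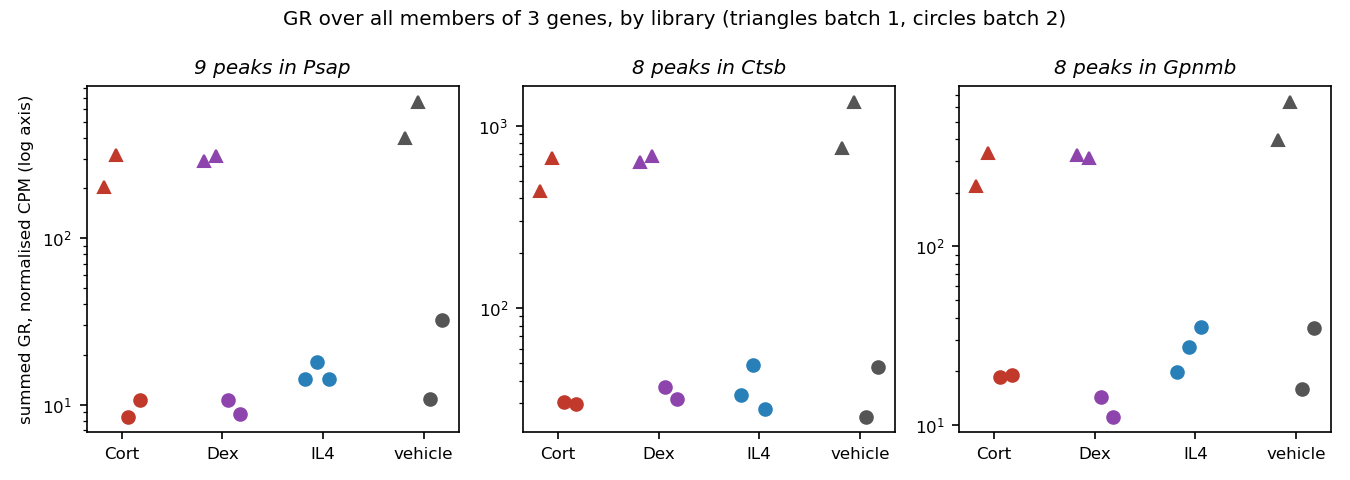
GR summed over all members of Psap, Ctsb and Gpnmb in every library, in normalised CPM on a log axis, with Cort, Dex, IL4 and vehicle from left to right, triangles for batch 1 and circles for batch 2. All batch 1 libraries lie between 202 and 1352 CPM and all batch 2 libraries between 8.47 and 48.8 CPM.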

How the data were processed

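Chromatin immunoprecipitation of GR (15 libraries) and H3K27ac (12 libraries) was read from 2 deposited tables of whole-number read counts per peak, as the authors made them. The submitters' processing notes name mm10 and the tools featureCounts, MACS2, Bowtie2, SAMtools and fastp, and versions are not given in the sources used here. Peaks are shared by all libraries of a table, so no call per library was compared. Vehicle columns are headed C and were matched to the vehicle samples by elimination. The H3K27ac input library was not analysed here.

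Counts were filtered with edgeR 4.0.16 (R 4.3.3) by filterByExpr, scaled by TMM, and tested by edgeR's quasi-likelihood test with Benjamini-Hochberg adjustment over all tested peaks of an assay, at an adjusted p under 0.05. The GR fit held treatment and batch over all libraries, and the H3K27ac fit held treatment. Standard errors were derived from the fold change and its F statistic. In counts of H3K27ac peaks, a peak that overlaps several members was counted once. A member was given the H3K27ac peak with the longest overlap, and counts of named members are by member. Fits were also run on simulated counts that held no batch effect and no pairing of libraries, so that run does not cover these features. DESeq2 1.42.0 was an alternative.

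Named genes were, for each assay and treatment, the 10 highest and the 10 lowest called members of at least median abundance, 1 per gene, without predicted genes. To these were added up to 4 members of each gene list, the 5 with the highest vehicle GR level and the 3 genes with the most members. The members, the gene lists and the tests were chosen with earlier results of these data known. Same-numbered H3K27ac libraries deviated together in all 18 pairs (correlation 0.268 to 0.678, against -0.449 to 0.0406 in 36 other pairs), so their numbers were taken to pair them, and blocked counts stand beside the main ones. Differences are relative to other peaks, and counts show only sampling error within a library.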

Additional observations from a re-analysis of the deposited data

Results flagged for a closer look

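Of 96 groups of 4 GR libraries, taken at the members described in the text and over library summaries, 5 held a library whose gap to the nearest other exceeded Dixon's 95% critical value, and chance alone flags about 5% of groups. In vehicle, Tenm4 had 0 CPM in replicate 1, below the other vehicle libraries. In Dex, Tlr7 had 30.4 CPM in replicate 3, below the other Dex libraries. Mdga2 had 6626 CPM in vehicle replicate 4, above the other vehicle libraries. The TMM factor of that library was 0.392, against 0.789 to 0.841 in the other vehicle libraries, and a lower factor gives higher levels at every site. Ccnd3 had 109 CPM in Dex replicate 1, above the other Dex libraries. Ctsb had 10.8 CPM in vehicle replicate 3 at its member chr14:63129030-63129302, above the other vehicle libraries.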

How the results depend on the processing

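GR counts changed with batch and scaling. In batch 2 alone, 0 members were called with Cort, 0 with Dex and 0 for Cort against IL4 by edgeR, and 67 for Dex against IL4. When Cort replicate 4 was left out as well, an alternative chosen after seeing the data, 25 were called with Cort, 212 with Dex and 43 for Cort against IL4. All 37 named GR rises with Cort and all 38 with Dex lost their call in batch 2 alone. Total-count scaling gave 739 with Cort, 910 with Dex, 201 for Cort against IL4 and 367 for Dex against IL4, and turned the named falls with Dex at Ctsb (chr14, start 63142267) to 0.0723 and at Gpnmb (chr6, start 49047772) to 0.0182. Under it 19 of 21 named GR falls with Cort and 16 of 19 with Dex were lost. DESeq2 called 12 GR members with IL4 and 290 H3K27ac peaks with Cort. With the replicate block, H3K27ac calls numbered 674 with Cort, 825 with Dex and 1039 with IL4, while for GR, whose same-numbered libraries did not vary together (correlation -0.197 to 0.187), the block gave 404 with Cort and 433 with Dex. Members marked TRUE under filtered lay in 231 called H3K27ac peaks with Dex, 236 with IL4, 357 for Cort against IL4 and 382 for Dex against IL4, by the smaller set. Leaving out 1 library gave 246 to 445 GR calls with Cort, 303 to 496 with Dex, 0 to 0 with IL4 and between the steroids, 84 to 195 for Cort against IL4 and 116 to 311 for Dex against IL4. For H3K27ac it gave 92 to 226 with Cort, 203 to 403 with Dex, 461 to 690 with IL4, 590 to 813 for Cort against IL4 and 649 to 842 for Dex against IL4. The counts in this paragraph are of members or of peaks with members, and shares of all tested peaks were not computed for the alternatives. The cause of these changes was not tested. Over the alternatives run, 188 of the recomputed values of named GR rises were lost and 1687 kept, and 101 of named H3K27ac rises were lost and 1752 kept. Of named GR falls 312 were lost, 2 reversed and 654 kept, and of named H3K27ac falls 85 were lost and 578 kept. Counted by member, the block ended no H3K27ac call at the named or printed members and added 45 with Cort, 32 with Dex and 17 with IL4. An H3K27ac peak shared by several members, as in Ctsb and Psap, counts here for each of them. The same holds for the named H3K27ac values kept and lost above. The shallowest GR library had 17350 reads in members.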
